A study of Gallus gallus with 205 samples.

Results

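The ephrin, semaphorin, slit and netrin guidance genes of the chicken gastrula were taken from the gene symbols: every gene whose symbol begins with EPHA, EPHB, EFNA, EFNB, SEMA, PLXNA to PLXND, NRP1, NRP2, SLIT1 to SLIT3, ROBO, NTN or UNC5 and that both deposited tables hold. These prefixes matched 56 of the 20581 shared genes. One of them, UNC50, is matched by its prefix only: it encodes a membrane protein of the secretory pathway, not a netrin receptor, and it is left out of the counts below, which are over 55 genes. They comprise 2 ephrin A and 2 ephrin B ligands, 9 EPHA and 4 EPHB receptors, 16 semaphorins, 7 plexins, 1 neuropilin, 2 slits, 3 robos, 5 netrins and 4 UNC5 receptors.

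Single cells of White Leghorn embryos of Hamburger-Hamilton stage 4, a stage with a fully extended streak, were sequenced after the streak had been cut out with a needle. By their titles the streak cells form 4 series, with 27 cells in cPS, 37 in cPS1, 59 in cPS2 and 52 in cPS3; the labels do not say how the numbered series differ. Cells of the surrounding region, the remainder of the area pellucida, form the series cSR (30 cells), of which 6 carry an epiblast label. All groups share breed and stage, no treatment was given, and the labels name no embryo, so each series is 1 sample whose cells are not replicates. No test between series was therefore possible, and intervals cover counting error only.

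Guidance molecules signal between neighbouring cells or over short distances and steer migrating cells and axons. Ephrins are anchored to the membrane and bind Eph receptor kinases on the next cell; class 3 semaphorins are secreted and bind a neuropilin with a plexin, whereas the other vertebrate semaphorins bind plexins directly; slits bind robo receptors, and netrins bind DCC, neogenin or UNC5 receptors. In the gastrula, cells leave the epiblast through the streak by an epithelial to mesenchymal transition and migrate out as mesoderm and endoderm.

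Total estimated counts per cell ran between 201170 and 4552697, with 2459318 at the median. Levels are given as counts per 1000000 of a cell's total (CPM) or, for a series, of the summed total of its cells (pooled CPM). A gene was called detected in a cell at 10 CPM or more. CPM is not scaled by transcript length, so levels are compared between cells and series within a gene, never between genes, and the share of cells that detect a gene depends on its transcript length too. A cell detected 14 of the guidance genes at the median, with a range from 7 to 27. The median was 12 in cPS, 15 in cPS1, 13 in cPS2, 14 in cPS3 and 14 in cSR.

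At least 25% of streak cells detected 23 of the 55 guidance genes, and at least 25% of cSR cells detected 19. Of all 20581 genes, 32.4% passed that limit in the streak and 32.8% in cSR. By series the guidance genes numbered 20 in cPS (background 31.3%), 25 in cPS1 (33%), 19 in cPS2 (32%) and 22 in cPS3 (33.4%). In at least 1 of the 5 series 26 of the 55 genes passed, and 15 passed in all 5, against 7784 and 5620 of all 20581 genes. Another 17 stayed under 10% of cells in every series, against 10133 of all 20581 genes. EFNA2, NTNG2, ROBO3, SEMA6C and UNC5A were detected in none of the 205 cells, as were 5738 of all 20581 genes. For a single gene that count leaves room for a share of at most 1.46%. SEMA6C had no count at all.

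**Figure D1:**
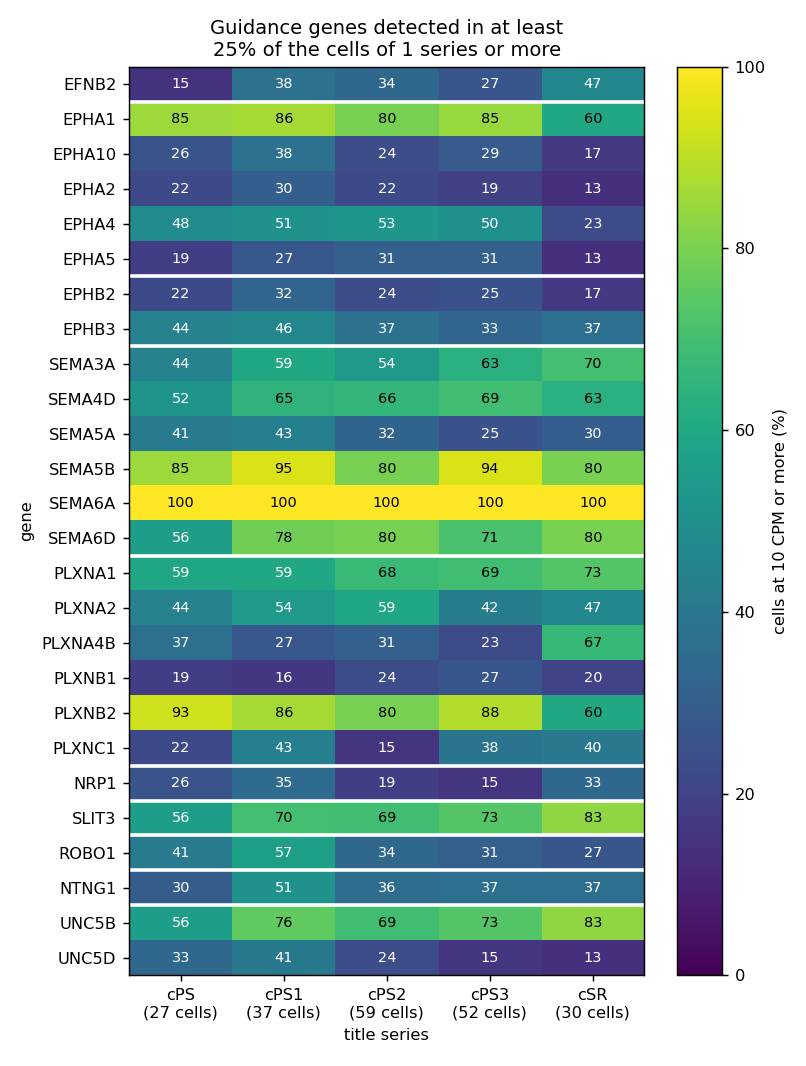
Share of cells (%, colour and printed value) that detected each of the 26 guidance genes found in at least 25% of the cells of 1 series or more, by title series on the horizontal axis, with white lines between roles. SEMA6A is at 100% in every column, PLXNA4B is highest in cSR, and EPHA4, EPHA1 and PLXNB2 are lowest in cSR.

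Eph receptors were detected in most streak cells, ephrin B ligands in fewer and ephrin A ligands in few. At least 1 EPHA receptor was detected in 168 streak cells (96%) and in 22 cSR cells (73.3%), whereas an ephrin A ligand was detected in 10 streak cells (5.71%) and 4 cSR cells (13.3%), all through EFNA5. An EPHB receptor was detected in 66.9% of streak cells and 60% of cSR cells, and an ephrin B ligand in 33.1% and 50%. Only 2 ephrin A genes are in both tables, so ephrin A ligands outside them were not analysed here.

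EFNB2, the transmembrane ephrin B2, was the ephrin found in most cells. It was detected in 14.8% of cPS, 37.8% of cPS1, 33.9% of cPS2, 26.9% of cPS3 and 46.7% of cSR cells. Its pooled level was 11.3, 16.04, 17.4 and 12.1 CPM in the streak series in that order and 21.6 CPM in cSR. The highest cell reached 191 CPM in the streak and 179 CPM in cSR, so the ranges of cells overlapped throughout. EFNB1, the related ligand, was detected in 10 streak cells and 3 cSR cells.

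EPHA1 was the receptor of its class detected in most cells. The lowest, median and highest cell was at 0.438, 134.3 and 873 CPM in cPS, at 0.449, 204 and 1312 CPM in cPS1, at 0, 166 and 1128 CPM in cPS2, at 0, 206 and 1074 CPM in cPS3, and at 0, 28.97 and 1056 CPM in cSR. The 4 streak medians were all above that of cSR, while the highest cSR cell lay within the range of the streak cells. Detection was in 85.2, 86.5, 79.7 and 84.6% of the cells of cPS, cPS1, cPS2 and cPS3, and in 60% of cSR cells.

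EPHA4, a receptor that binds ligands of both ephrin classes, was detected in about the same share of each streak series: 48.1% of cPS, 51.4% of cPS1, 52.5% of cPS2 and 50% of cPS3 cells, and in 23.3% of cSR cells (95% exact binomial interval 9.93 to 42.3%). The median cell was at 8.38, 11.7, 12.6 and 8.70 CPM in the same streak series and at 0.354 CPM in cSR. The highest was at 224, 272, 301 and 285 CPM in the streak series and at 165.2 CPM in cSR. Every streak median exceeded the cSR median, and the ranges of cells overlapped because each series held cells at 0.

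The other EPHA receptors were found in fewer cells. EPHA5 was detected in 18.5 to 30.8% of the cells of each streak series and 13.3% of cSR cells. EPHA10, which lacks kinase activity in mammals, was detected in 23.7 to 37.8% and 16.7%, and EPHA2 in 19.2 to 29.7% and 13.3%. These 3 receptors lay in the same order, streak above cSR, in the share of cells and, except for EPHA10 in cPS2 (5.48 CPM, against 6.69 CPM in cSR), in the pooled level. EPHA7 was detected in 13.7% of streak cells and 6.67% of cSR cells. EPHA3, EPHA6 and EPHA8 were detected in 6, 6 and 1 streak cells and in 0, 5 and 0 cSR cells.

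Of the EPHB receptors, EPHB3 was detected in 44.4% of cPS, 45.9% of cPS1, 37.3% of cPS2, 32.7% of cPS3 and 36.7% of cSR cells, with pooled levels of 17.8, 18.7, 20.7, 12.8 and 17.9 CPM. The cSR values thus lay within the range of the 4 streak series. EPHB2, also a receptor kinase for ephrin B ligands, was detected in 25.7% of streak and 16.7% of cSR cells. EPHB6, whose kinase domain is inactive in mammals, was detected in 20% of the cells of each tissue. EPHB1 was detected in 14 streak cells and 0 of 30 cSR cells, a count that leaves room for about 10% of cells that detect it.

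SEMA6A, a transmembrane semaphorin that binds plexin A2 and plexin A4 in mice, was detected in every streak and every cSR cell. The lowest, median and highest streak cell was at 26.03, 677 and 4633 CPM, and the lowest, median and highest cSR cell at 12.6, 311 and 1596 CPM. Pooled levels were 578 CPM in cPS, 836 CPM in cPS1, 1051 CPM in cPS2, 830.2 CPM in cPS3 and 419 CPM in cSR. SEMA6A was thus lowest in cSR, with ranges of cells that overlapped.

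SEMA5B, a transmembrane semaphorin with thrombospondin repeats, was detected in 88% of streak cells and 80% of cSR cells. SEMA6D, a ligand of plexin A1 studied in the chick heart, was detected in 73.1% and 80%, and SEMA4D, a ligand of B plexins in mammals, in 64.6% and 63.3%. SEMA3A, the secreted semaphorin first purified as collapsin from chick brain, was detected in 56.6% of streak cells and 70% of cSR cells, and SEMA5A in 33.7% and 30%. For each of these 5 genes the binomial intervals of the tissues overlapped. The remaining 10 semaphorins were detected in at most 10 streak cells and 4 cSR cells each.

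Of the 7 plexins, PLXNB2 and PLXNA4B differed most in detection between the tissues, in opposite directions. PLXNB2, a receptor of class 4 semaphorins, was detected in 92.6% of cPS, 86.5% of cPS1, 79.7% of cPS2, 88.5% of cPS3 and 60% of cSR cells. The lowest, median and highest cell was at 7.23, 123.5 and 683 CPM in cPS and at 0.384, 15.3 and 482 CPM in cSR. Medians of the other streak series were 176 CPM in cPS1, 122.1 CPM in cPS2 and 87.7 CPM in cPS3. All 4 streak medians were thus higher than that of cSR, and the ranges overlapped.

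PLXNA4B, annotated under that symbol as a plexin A gene, was detected in 37.04% of cPS, 27.03% of cPS1, 30.5% of cPS2, 23.1% of cPS3 and 66.7% of cSR cells. The lowest, median and highest cell was at 0, 0.737 and 103.1 CPM in cPS and at 0.322, 73.5 and 484 CPM in cSR. The medians of cPS1, cPS2 and cPS3 were 1.65, 0.647 and 0.352 CPM. The typical streak cell was therefore near 0 and the typical cSR cell well above the detection limit, although single streak cells reached up to 960 CPM.

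PLXNA1, a receptor shared by class 3 and class 6 semaphorins, was detected in 65.1% of streak cells and 73.3% of cSR cells, and PLXNA2, a receptor of SEMA6A, in 50.9% and 46.7%. PLXNC1, the receptor of SEMA7A in mammals, was found in 29.1% and 40%, and PLXNB1, a receptor of SEMA4D, in 22.3% and 20%. PLXND1 was detected in 6 streak cells and 4 cSR cells. NRP1, the ligand-binding co-receptor of SEMA3A, was detected in 22.3% of streak cells and 33.3% of cSR cells. Its pooled level was 49.9, 30.2, 31.97 and 10.9 CPM in cPS, cPS1, cPS2 and cPS3 and 95.7 CPM in cSR, where 1 cell at 989 CPM gave 54.04% of the counts.

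SLIT3 was the slit found in most cells and ROBO1 the robo found in most. SLIT3, a secreted ligand of robo receptors, was detected in 55.6, 70.3, 69.5 and 73.1% of the cells of the 4 streak series and in 83.3% of cSR cells. SLIT2 was detected in 13.1% of streak cells and 16.7% of cSR cells. ROBO1, a slit receptor, was detected in 38.9% of streak cells and 26.7% of cSR cells, and ROBO2, its paralogue, in 11.4% and 23.3%.

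Of the netrin genes and their UNC5 receptors, UNC5B was detected in most cells, NTNG1 in fewer and NTN1 in few. UNC5B, a receptor for netrin 1 and FLRT proteins, was detected in 69.7% of streak cells and 83.3% of cSR cells, with median cells at 55.3 and 107.6 CPM. UNC5D was detected in 26.3% and 13.3%, and UNC5C in 10 and 2 cells. NTNG1, netrin G1, which is anchored by a lipid and does not bind DCC or UNC5 receptors in mammals, was detected in 38.3% of streak cells and 36.7% of cSR cells. NTN1, the secreted netrin 1, was detected in 7 streak cells and 0 of 30 cSR cells, a count that leaves room for about 10%. NTN3 was detected in 8 streak cells and 1 cSR cell, and NTN4 in 1 streak cell.

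Across the 4 streak series, the share of cells varied by at least 25 percentage points for 3 of the guidance genes. The same count was not made over all genes, so whether these 3 vary more than genes at large was not tested. PLXNC1 was detected in 43.2% of cPS1 and 15.3% of cPS2 cells, ROBO1 in 56.8% of cPS1 and 30.8% of cPS3 cells, and UNC5D in 40.5% of cPS1 and 15.4% of cPS3 cells. The sample descriptions give each library a number, and the numbers were divided here into 4 blocks that the labels do not name. Blocks 3 and 4 are separate runs of numbers; cPS2 was spread over both, with cPS1 only in block 3 and cPS3 only in block 4. Within cPS2, PLXNC1 was detected in 16.1% of block 3 cells and 14.3% of block 4 cells, ROBO1 in 41.9% and 25%, and UNC5D in 12.9% and 35.7%. UNC5D therefore ran the other way within cPS2 than between cPS1 and cPS3.

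The series cPS and cSR share a single run of library numbers, in which cPS, cSR, cPS and cSR follow each other; it was divided into blocks 1 and 2 where the numbers return to cPS. These series were compared directly, to see which guidance genes divide the streak from the tissue around it. EPHA4 and PLXNB2 were higher in cPS and PLXNA4B was lower by a rule of size: at least 2-fold between pooled levels plus 1 CPM, a mean of at least 5 CPM, detection in at least 25% of cells of the higher tissue and the same direction in both blocks. Of the 55 guidance genes 30 reached the mean of 5 CPM, 2 passed as higher and 1 as lower, and the same 3 passed without the rule on blocks. Of all 9032 genes at that mean, 4.37% passed as higher and 6.64% as lower. Between cPS and cSR the guidance genes were thus called about as often as genes at large. Their median log2 ratio of cPS over cSR was 0.02, and that of all 9032 genes was -0.04. The scaling matters for the split: 39.7% of all calls were higher in cPS with CPM, 55.2% with TMM factors, which raised the median log2 ratio by 0.15, and 48.96% with DESeq2 size factors, and with either of these EPHA1 joined EPHA4 and PLXNB2 as higher while PLXNA4B remained lower.

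EPHA4 had a pooled level of 38.2 CPM in cPS (95% exact Poisson interval 36.8 to 39.7) and 15.01 CPM in cSR (14.1 to 15.9), a log2 ratio of 1.29. In block 1 the levels were 39.7 CPM in cPS and 21.4 CPM in cSR, and in block 2 they were 36.2 and 10.02 CPM. The log2 ratios of cPS1, cPS2 and cPS3 over cSR were 1.02, 1.46 and 0.74, so the last stayed under 2-fold. One cSR cell gave 54.6% of the EPHA4 counts of cSR. Without the highest cell of each tissue the log2 ratio was 1.95.

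PLXNB2 had a pooled level of 188 CPM in cPS (185 to 191) and 79.2 CPM in cSR (77.1 to 81.3), a log2 ratio of 1.23. The ratio was 0.42 in block 1 and 2.34 in block 2, so most of the difference lay in block 2, where 40.2 CPM was found in cSR against 129.1 CPM in the cSR cells of block 1. The log2 ratios of cPS1, cPS2 and cPS3 over cSR were 1.56, 1.38 and 1.25. EPHA1 lay just under the 2-fold limit, with cPS at 227 CPM and cSR at 115.7 CPM, a log2 ratio of 0.96, and at 1.41, 1.24 and 1.04 in cPS1, cPS2 and cPS3 over cSR.

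PLXNA4B had a pooled level of 18.8 CPM in cPS (17.8 to 19.9) and 96.1 CPM in cSR (93.8 to 98.4), a log2 ratio of -2.29. The ratio was -2.33 in block 1 and -2.43 in block 2. It was -1.76, -1.51 and -1.18 for cPS1, cPS2 and cPS3 over cSR, so all 4 streak series were lower than cSR by more than 2-fold. When cells were thinned to 1000000 counts each, which left out 1 cPS2, 2 cPS3 and 2 cSR cells, the shares of cPS and cSR cells with PLXNA4B were 37.04 and 64.3%, those with EPHA4 51.9 and 21.4%, and those with PLXNB2 92.6 and 60.7%.

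**Figure D2:**
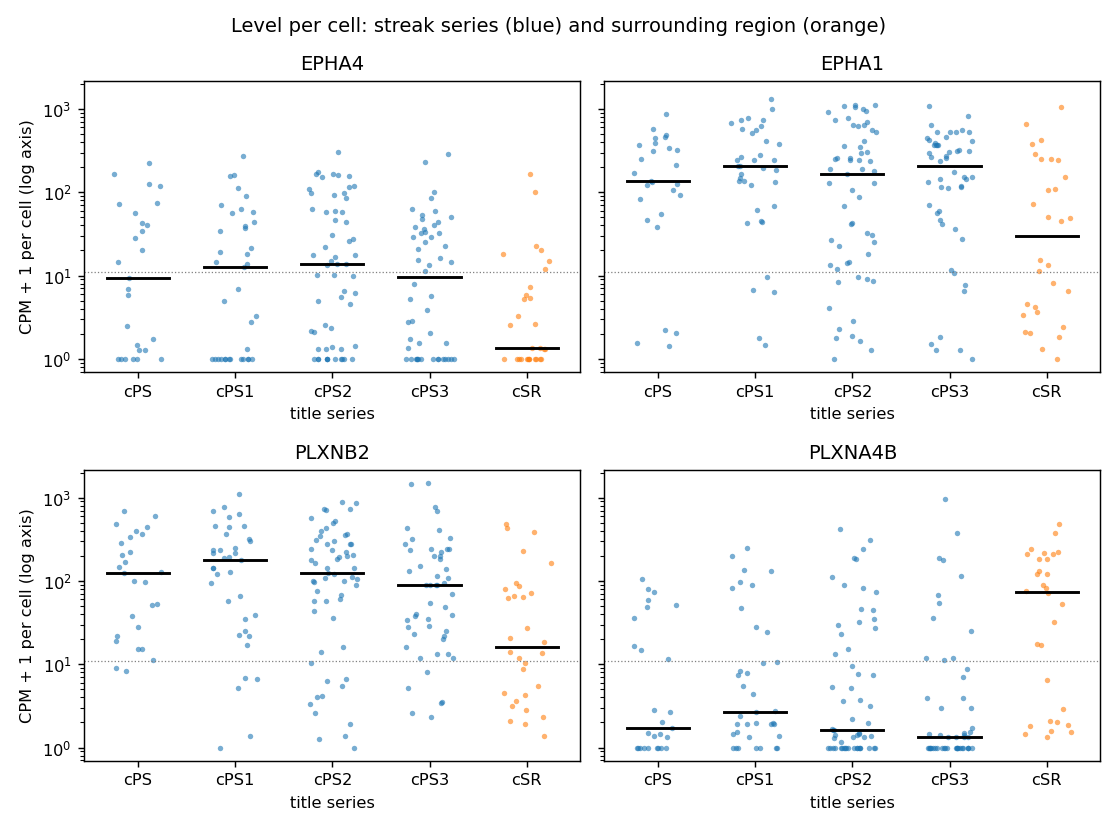
Level of EPHA4, EPHA1, PLXNB2 and PLXNA4B in each cell (CPM + 1, log axis) by title series, with 1 point per cell, a black bar at the median and a dotted line at the detection limit of 10 CPM. The cSR median is the lowest of the 5 for the first 3 genes and the highest for PLXNA4B, at 73.5 CPM, and the ranges of cells overlap.

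Other guidance genes went past 2-fold without meeting the rest of the rule, or went opposite ways in the blocks. EPHA5 measured 13.2 CPM in cPS and 4.43 CPM in cSR, a log2 ratio of 1.39, but was detected in only 18.5% of cPS cells. SEMA3D, a secreted semaphorin, was at 2.33 and 8.88 CPM, a log2 ratio of -1.57, with detection in 7.41 and 13.3% of cells. UNC5D had log2 ratios of 3.81 in block 1 and -3.04 in block 2, and EFNB2 had 0.02 and -3.08. SEMA6A had a log2 ratio of 0.46 for cPS and of 0.99, 1.32 and 0.98 for cPS1, cPS2 and cPS3 over cSR.

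With the other streak series in place of cPS, which share the cSR cells but not its library blocks, and without the rule on blocks, 7 guidance genes were higher and 2 lower in cPS1, where 7.09 and 4.68% of all genes were. The counts were 5 and 3 in cPS2 (4.94 and 4.55%) and 6 and 3 in cPS3 (4.89 and 4.85%). With all streak cells pooled they were 6 and 2 (3.8 and 2.91%). The counts are numbers of genes, whereas the percentages are shares of all genes that reached the mean of 5 CPM. Even when divided by all 55 guidance genes, each count of higher genes is a larger share than that of all genes. Divided the same way, the counts of lower genes were also larger shares in cPS2, cPS3 and all streak cells, but not in cPS1. These are counts of 2 or 3 genes. The likeness to genes at large found for cPS thus did not extend to higher genes here, and for lower genes the counts are too small to say. All of these comparisons rest on the same cSR cells. PLXNB2 and EPHA1 were among the higher and PLXNA4B and NRP1 among the lower genes in each of cPS1, cPS2 and cPS3. The log2 ratios of NRP1 were -1.63, -1.55 and -3.02 in cPS1, cPS2 and cPS3 over cSR, and 1 cSR cell held most of its cSR counts. For cPS the ratio was -0.93, or -0.28 without the highest cell of each tissue.

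**Figure D3:**
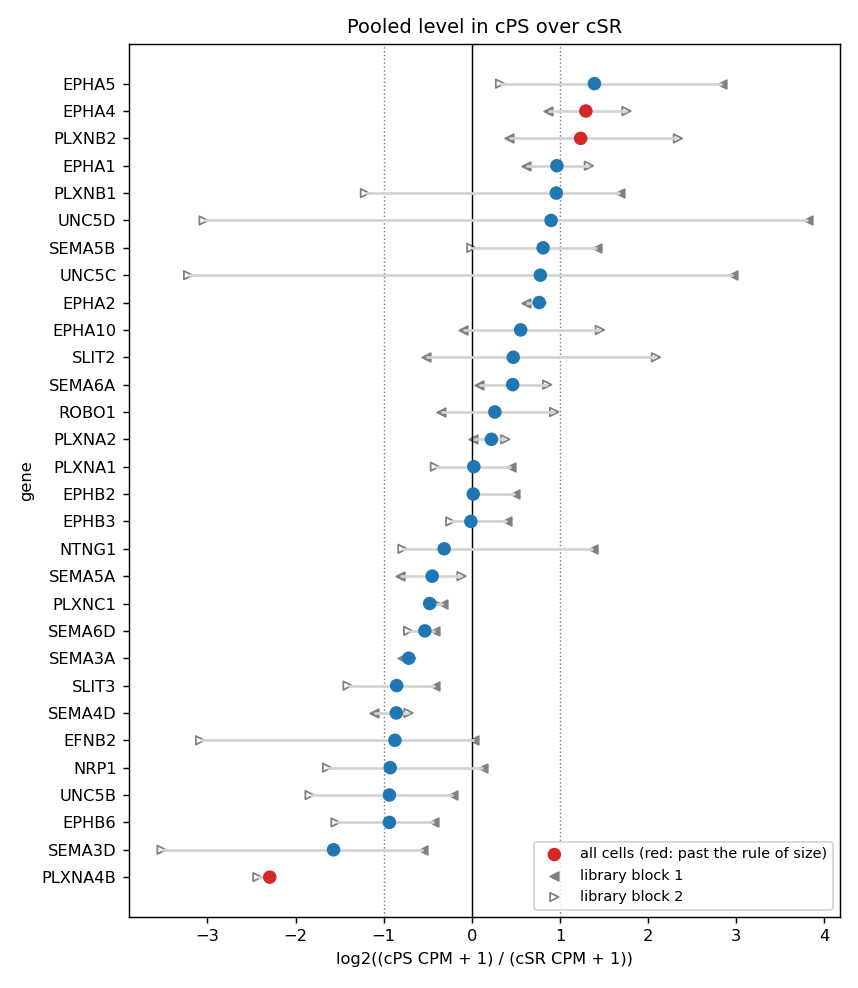
Log2 ratio of pooled CPM plus 1 in cPS over cSR for the 30 guidance genes at a mean of at least 5 CPM (large points, red where past the rule of size), with library block 1 (filled triangles) and block 2 (open triangles) and dotted lines at 2-fold. EPHA4 and PLXNB2 lie at 1.29 and 1.23, PLXNA4B lies at -2.29, and the blocks disagree in sign for genes such as UNC5D.

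The tissues also differed in markers of cell types. The 5 streak and mesendoderm markers summed to 3030.3 CPM in cPS and 1819 CPM in cSR, so genes of the streak were read in both tissues. The 7 lateral and vascular mesoderm markers summed to 141.4 CPM in cPS, with cells from 0.354 to 697 CPM, and to 583 CPM in cSR, with cells from 2.41 to 2524 CPM; HAND1 was detected in neither tissue and CDH5 and TAL1 not in cPS. The 6 node markers in the tables summed to 97.2 CPM in cPS, with cells from 0.438 to 533 CPM, and to 10.8 CPM in cSR, with cells from 0 to 71.7 CPM and with CHRD, FOXA2 and SHH undetected. Endoderm markers summed to 497 CPM in cPS (median cell 58.6, highest 5639 CPM) and 65.4 CPM in cSR (29.1 and 332 CPM). SOX17 and TTR were detected in neither tissue. The endoderm sums of cPS1, cPS2 and cPS3 were 446, 179.2 and 90.2 CPM. Non-neural ectoderm markers summed to 10.04 CPM in cPS (median cell 1.64 CPM), with VGLL1 and TFAP2A undetected. Their sum in cSR was 126.6 CPM, with a median cell of 5.80 CPM and a highest of 1692 CPM. The part of these marker differences in the ratios above was not tested. Among cells that detected KDR, the vascular receptor kinase, PLXNA4B was at 42.2 CPM in 10 cPS cells and 127.2 CPM in 21 cSR cells, and among the other cells at 4.01 CPM in 17 cPS cells and 13.1 CPM in 9 cSR cells. It was thus lower in cPS on both sides of that division. Detection was in 7 of 10 cPS and 17 of 21 cSR cells with KDR, and in 3 of 17 and 3 of 9 without it. Among cells with KDR, cPS1, cPS2 and cPS3 were also lower than cSR, at 47.9, 71.02 and 104.75 CPM. Among cells without KDR, cPS1 was at 9.90 CPM, but cPS2 and cPS3 were above cSR, at 16.3 and 19.4 CPM. For PLXNB2, the smaller share of cSR cells was limited to the KDR side, with 9 of 21 against 9 of 10 for cPS. Without KDR, PLXNB2 reached the limit in all 9 cSR cells, against 16 of 17 for cPS. The shares there were 78.9, 82.9 and 89.5% in cPS1, cPS2 and cPS3. Its pooled level was still lower in cSR on both sides, at 72.1 against 237.9 CPM for cPS with KDR and 98.1 against 155.9 CPM without it. EPHA4 in KDR-detecting cells had levels of 37.8 CPM for cPS and 2.62 CPM for cSR, and in the other cells 38.5 and 48.1 CPM, with detection in 8 of 17 and 4 of 9 cells. The value of the other cSR cells rests on 1 cell at 165.2 CPM: without the highest cell of each tissue, an alternative added after the values were seen, EPHA4 was at 25.7 CPM for cPS and 22.03 CPM for cSR among cells without KDR and at 18.8 and 1.73 CPM among cells with KDR.

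Within the surrounding region, EPHA4 transcripts were concentrated in the 6 epiblast-labelled cells. They had 0.322, 14.1, 17.2, 21.6, 99.5 and 165.2 CPM, and 5 of the 6 detected the gene, against 2 of the other 24 cSR cells, which had a median of 0.150 CPM and a highest cell of 19.1 CPM. Pooled, EPHA4 measured 60.1 CPM in the labelled cells and 2.69 CPM in the others, and the labelled cells gave 85.9% of the EPHA4 counts of cSR. The ranges overlapped, through the lowest labelled cell and the highest of the others. EPHA1 was detected in 6 of 6 labelled cells and 12 of 24 others, and SEMA3A in 6 of 6 and 15 of 24.

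PLXNA4B showed the opposite division. It was detected in 2 of 6 epiblast-labelled cells, with a median of 1.36 CPM, and in 18 of 24 others, with a median of 104.3 CPM. ROBO1 was detected in 0 of 6 labelled cells, where the limit for 0 cells is a share of 50%, and in 8 of 24 others. Labelled cells were 4 in block 1 and 2 in block 2, the others 9 and 15, and the median totals were 2538606 and 2478990 counts. Streak and mesoderm markers were found in the labelled cells too. T was detected in 6 of 6 labelled cells and 23 of 24 others, at 1159 and 1204 CPM. SNAI2 was detected in 3 of 6 and 19 of 24, KDR in 3 and 18, and MSGN1 in 3 and 8. SOX3 was detected in 3 of 6 and 5 of 24, and CDH1 in 1 and 0. The division by label was examined after the cells' values had been seen.

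The guidance genes were next set beside single marker genes in the same cells, to see which kinds of streak cell held them. With a limit of 20 percentage points, set after the values were seen, 6 markers that each left at least 20 cells on either side were compared for the 26 guidance genes named here. Among all combinations of these 6 markers with the 26 genes, the share was higher in marker-detecting cells for 15 and lower for 7. In these, 12 of the 26 genes took part, and a gene can count under several markers, as PLXNA2 does under SNAI2, KDR and MSGN1. These sums were not made over all genes, so a background is given below for each marker alone. The marker groups overlap: 59 of the 60 KDR cells and all 57 MSGN1 cells detected SNAI2.

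PLXNA2 followed the mesoderm markers. It was detected in 57.6% of streak cells with SNAI2 and in 2 of the 24 without it, or 8.33%. SNAI2 is a repressor of epithelial genes active in the transition to mesenchyme. The difference was 4.5 points in cPS1 and 52.2 to 66.04 points in the other streak series. It rests on few cells without SNAI2, of which 0 of 4 in cPS, 2 of 4 in cPS1, 0 of 6 in cPS2 and 0 of 10 in cPS3 detected PLXNA2. In cSR the counts were 14 of 22 and 0 of 8, where the limit for 0 cells is a share of 37.5%. By KDR, PLXNA2 was detected in 78.3% of the 60 streak cells with KDR and 36.5% of the others, and the difference was 40.6, 46.2, 42.5 and 39.8 points in cPS, cPS1, cPS2 and cPS3. In cSR it was detected in 13 of 21 KDR cells and 1 of 9 others. PLXNA2 was therefore detected in a larger share of SNAI2-detecting and of KDR-detecting cells in both tissues. In cSR, with few cells on the smaller side, shares higher by 20 points were common. They were found for 14.1% of all genes compared and 7 of the 26 guidance genes with SNAI2. With KDR they were found for 10.3% and 6 of the 26. PLXNA2 was not confined to KDR cells in the streak, where 47 PLXNA2 cells had SNAI2 and KDR and 40 had SNAI2 without KDR.

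PLXNA4B was detected in 46.7% of KDR-detecting and 19.1% of other streak cells, and in 17 of 21 and 3 of 9 cells in cSR. All 17 cSR cells with both SNAI2 and KDR detected it. PLXNA2 and PLXNA4B levels had a Spearman correlation of 0.43 over all streak cells, the highest of any pair of the 26 genes, and of 0.51 over the 30 cSR cells. Each cell has its own library number, total counts differ between cells, and the cells of a series are not replicates. Over all genes that could be compared, 2.15% were higher by 20 points with KDR and 0.912% lower, against 3 and 0 of the 26 guidance genes, the third being PLXNA1 (78.3 and 58.3%). With SNAI2, 6.62% were higher and 1.79% lower, against 3 and 2 guidance genes: EFNB2 (33.1% of SNAI2 cells and 8.33% of others) and SEMA6D (77.5 and 45.8%) beside PLXNA2, and PLXNB1 (19.2 and 41.7%) and SEMA4D (61.6 and 83.3%) in the other direction. In cSR, SEMA6D ran against the streak, at 17 of 22 cells with SNAI2 and 7 of 8 others.

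MSGN1, a regulator of paraxial mesoderm, was detected in 57 streak cells. PLXNA2 (70.2 and 41.5%), PLXNA4B (42.1 and 22.03%), EPHA10 (42.1 and 22.03%) and SEMA6D (89.5 and 65.3%) were each found in a larger share of MSGN1 cells than of the others, and SEMA4D in a smaller one (47.4 and 72.9%). In cSR SEMA4D ran the opposite way, at 8 of 11 cells with MSGN1 and 11 of 19 others. The background was 2.79% of genes higher and 0.437% lower. In the streak SEMA4D was found more often with SOX3, a factor of the epiblast and neural plate, at 86.96% of 46 cells with SOX3 and 56.6% of the others, and at 7 of 8 and 12 of 22 cells in cSR. PLXNA1 was also higher with SOX3 (82.6 and 58.9%) and EPHA10 lower (13.04 and 34.1%), against a background of 3.11 and 0.848% of genes.

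EPHB3 was found more often in cells with the node gene CHRD. It was detected in 30 of 44 streak cells with CHRD, which encodes the BMP antagonist chordin, or 68.2% (95% exact binomial interval 52.4 to 81.4%), and in 38 of the others, or 29.01% (21.4 to 37.6%). The pooled level was 32.3 and 13.1 CPM, and the share was higher by 16.7, 67.7, 27.3 and 38.5 points in cPS, cPS1, cPS2 and cPS3. PLXNC1 was detected in 13.6% of CHRD cells and 34.4% of the others. With CHRD, 1.39% of all genes were higher and 1.14% lower, against 1 and 1 of the guidance genes, and no cSR cell detected CHRD, so the relation could not be examined there.

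NRP1 was detected in 18 of 45 streak cells with APOA1, an apolipoprotein of endoderm and hypoblast, and in 21 of the other 130, or 40% and 16.2%. The difference was 61.4, 14.7, 13.1 and 21.7 points in cPS, cPS1, cPS2 and cPS3, and in cSR the counts were 6 of 10 and 4 of 20. SEMA3A, the ligand of NRP1, ran the other way, at 40 and 62.3% in the streak and 4 of 10 and 17 of 20 cells in cSR. PLXNA1 (80 and 60%) was higher and SEMA6D (57.8 and 78.5%) lower in APOA1 cells of the streak, against a background of 1.07 and 1.04% of genes. Median total counts of marker and other streak cells lay between 2364765 and 2815327 for these 6 markers. Fewer cells detected the ectoderm gene GRHL3 (19 cells) and the epithelial cadherin CDH1 (9 cells). EPHB2, NTNG1 and SEMA4D were higher and no guidance gene lower with GRHL3 (background 7.9 and 0.809% of genes), and EPHA4 was higher and EPHA10, PLXNA2 and SEMA4D lower with CDH1 (background 10 and 5.11%).

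**Figure D4:**
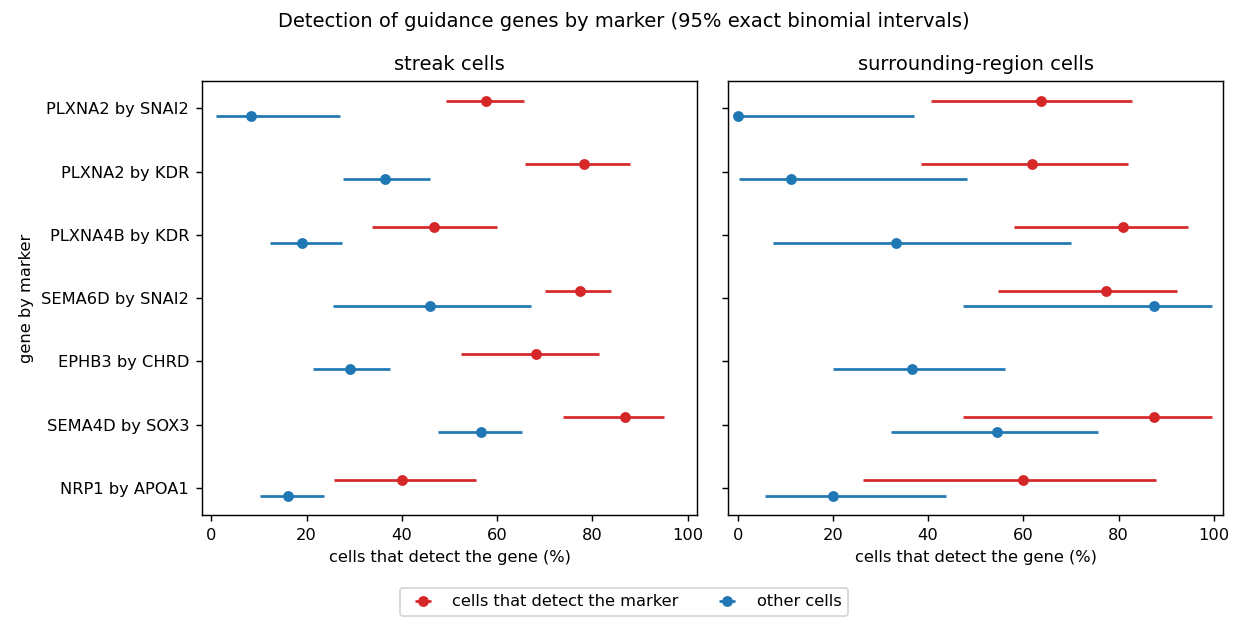
Share of cells (%) that detected a guidance gene among cells with a marker (red) and other cells (blue), with 95% exact binomial intervals, in the streak (left) and the surrounding region (right). PLXNA2 by SNAI2 stands at 57.6% and 8.33% in the streak; EPHB3 by CHRD has no red point in the surrounding region because no cell there detected CHRD.

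Ligands and their receptors were last looked for in the same cell, where a cell could meet its own ligand. Of 99 known receptor and ligand pairs 50 had both genes in the tables, and 4 were found together in at least 25% of streak cells and 5 in at least 25% of cSR cells. In the streak 33 of the 50 pairs were found together in at least 1 cell. Beside each share of cells with both genes stands the product of the genes' own shares.

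PLXNB2 and SEMA4D were detected together in 97 streak cells, or 55.4%, where the product of their shares is 55.3%, and in 14 of 30 cSR cells, or 46.7%, where the product is 38%. PLXNA1 and SEMA6D were together in 47.4% of streak cells (product 47.6%) and 60% of cSR cells (58.7%). PLXNA2 and SEMA6A were together in 50.9 and 46.7%, the share of PLXNA2 itself because every cell held SEMA6A. By the same token PLXNA4B and SEMA6A, a pair added after the values were seen, were together in 28.6% of streak and 66.7% of cSR cells.

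ROBO1 and SLIT3 were together in 48 streak cells, or 27.4% (product 26.6%), and in 8 cSR cells, or 26.7% (22.2%), which were all the ROBO1 cells of cSR. EPHB3 and EFNB2 were together in 10.9% of streak cells (11.5%) and 26.7% of cSR cells (17.1%). EPHA4 met EFNB2 in 12% of streak cells (15.1%), with the receptor alone in 68 cells and the ligand alone in 31. NRP1 and SEMA3A were together in 10.9% of streak cells (12.6%) and 13.3% of cSR cells (23.3%). In the streak, all pairs of this paragraph, and PLXNA4B with SEMA6A, were more often apart than together. That is, more cells detected only the receptor or only the ligand than detected both. The 95% exact binomial interval of each share named here held its product. This is no test of whether the genes go together, because the products come from the same cells and the cells are not replicates. For the pairs with SEMA6A the product equals the share because every cell held SEMA6A.

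**Figure D5:**
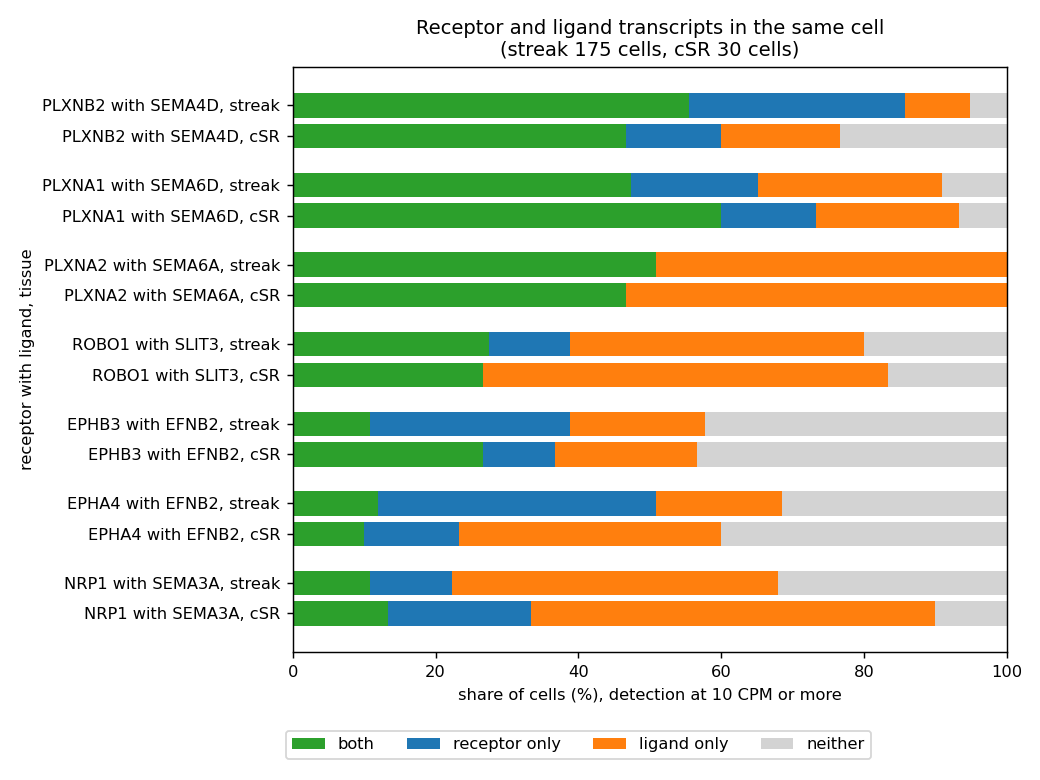
Share of cells (%) with receptor and ligand, the receptor alone, the ligand alone or neither at 10 CPM or more, for 7 pairs in the streak and the surrounding region (30 cells). PLXNB2 with SEMA4D fills 55.4% of streak cells with both, whereas EPHA4 with EFNB2 fills 12%.

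Netrin 1 had receptors but few source cells. All 7 NTN1-detecting streak cells detected NEO1, the netrin and RGM receptor neogenin, which was at 219 CPM in 96.3% of cPS cells and 297 CPM in all cSR cells, and 4 of the 7 detected UNC5B. Of 9 netrin receptors and related genes outside the symbol rule 7 were in both tables. The netrin receptor DCC was not among these and was not analysed here. Of the 6 at a mean of 5 CPM 1 passed the rule of size, FLRT3, an adhesion protein that binds UNC5 receptors. Its level was 44.5 CPM in cPS and 15.8 CPM in cSR. Of 17 adaptors and GTPase regulators 1 passed, NCK2, an adaptor of Eph and other receptors, with a cPS level of 30.9 CPM and a cSR level of 6.201 CPM. Of 23 kinases and cytoskeletal genes EVL, an Ena/VASP protein of growing actin filaments, passed as lower, with 3.46 CPM for cPS and 11.4 CPM for cSR. The log2 ratios of EVL in cPS1, cPS2 and cPS3 over cSR were 0.49, -0.61 and -0.58, so cPS1 went the other way. Those of FLRT3 and NCK2 were above 0 in each of these series. None of the 4 proteases and adhesion partners passed, and the backgrounds are the 4.37 and 6.64% given above.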

How the data were processed

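Single cells of the primitive streak and of the surrounding region of stage 4 chicken embryos were sequenced from libraries fragmented and amplified with a Nextera XT kit, per the labels' protocols. The authors deposited expected counts per gene and cell in 2 tables, 1 per tissue; per the submitters' processing notes the build was galGal4 and the tools were RSEM 1.2.3, CASAVA 1.8.2 and Bowtie, in version 0.12.9 except for 1 cell with 0.12.8. Expected counts need not be whole: 64.4% of the values above 0 were. The last line of the streak table ended within a row and was dropped, and the tables share 20581 genes, over which CPM was computed. No molecular identifiers are described, so counts include PCR copies, and the exact Poisson and Clopper-Pearson intervals cover counting error only; no adjustment was made for doublets.

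Cells were grouped by their titles. Nothing names separate embryos, so each series counts as 1 sample and no test was made. The 4 blocks of libraries were drawn here from the library numbers in the labels, which name no batch. The genes, marker lists and pairs were chosen with earlier results of these data known. Values are given singly for guidance genes detected in at least 25% of the cells of at least 1 series or past the rule of size, and for pathway genes past that rule; pairs are named at 25% of the cells of either tissue, and further pairs and other genes were named after their values were seen. For thinning, counts were rounded to whole numbers and 1000000 drawn per cell. Any pair of cells correlated at most at 0.857 on the log2 CPM scale, so none was counted as a copy. Factors for other scalings came from edgeR 4.0.16 (TMM) and DESeq2 1.42.0 in R 4.3.3; other steps used Python 3.11.15. The rule of size was tested on simulated data. Alternatives changed the detection limit, depth, pseudocount, averaging, filters, fold, scaling, cells and series.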

Additional observations from a re-analysis of the deposited data

Results flagged for a closer look

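NRP2 and SLIT1 meet the symbol rule but are listed in the surrounding-region table only, so they were in none of the comparisons above, and their levels in the streak were not analysed here. NRP2, the second neuropilin, was at 8.83 CPM in cSR (95% exact Poisson interval 8.16 to 9.54) and was detected in 4 of 30 cells. SLIT1, a slit ligand of robo receptors, was at 13.9 CPM (13.1 to 14.8) and was detected in 11 of 30 cells, or 36.7% (19.9 to 56.1%). Both levels are above 0.0414 CPM, the level of 3 counts over all cSR cells.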

How the results depend on the processing

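PLXNA4B was lower under every alternative named here. With detection at 1 CPM in place of 10, 34 guidance genes were detected in at least 25% of cSR cells and 10 pairs were together in the streak and 12 in cSR; at 50 CPM, 11 genes were detected in each tissue and 1 pair was together in each. EPHA4 was no longer higher with a pseudocount of 10 CPM, which left 1 higher gene, and a 4-fold limit left 0. Lower genes numbered 2 after thinning, 5 with the mean log2 level per cell, 4 without the 6 epiblast-labelled cells and 3 without each gene's highest cell, when 3 genes passed as higher. Calls over all genes rose too without the labelled cells, to 503 higher and 709 lower, against 395 and 600 with them. For the other settings of this list the calls over all genes are not given here, so these counts say nothing particular to guidance genes. Without the labelled cells the EPHA4 log2 ratio was 3.41. In place of cPS, higher and lower genes numbered 7 and 2 in cPS1, 5 and 3 in cPS2, 6 and 3 in cPS3 and 6 and 2 in all streak cells. The shares of all genes in these comparisons are given above. EPHA4 was not among the called genes in cPS3. The cause was not tested. The other 33 values of these counts stayed within 1.5 times the reported ones. Of the 26 genes named singly, 9 kept the sign of their log2 ratio in all 12 alternatives. No paired analysis was possible because each series is 1 sample and no test was made; the title numbers shared between series name single cells. With 30 cSR cells, a gene in under 10% of them could go undetected.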
